A study of Homo sapiens with 8 samples.

Results

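The genes described here are 7 genes of cytokinesis and the midbody, namely ANLN, ECT2, RACGAP1, PRC1, CIT, CEP55 and ARHGAP11A. They were chosen by name, with earlier results of these data known. They are 7 of the 38148 genes in the table of mRNA abundance in HT29 cells, a human colorectal cancer cell line. The cells were untreated or had been given selumetinib, an inhibitor of the kinases MEK1/2 upstream of ERK1/2, at 1 μM for 24 h. They were then fixed with glyoxal, stained with an antibody to cyclin B1 (CCNB1), a protein that accumulates in G2, and sorted by flow cytometry into CCNB1-positive and -negative cells for poly(A) mRNA-seq. The 4 groups hold 2 libraries each, CCNB1-negative and CCNB1-positive cells from the untreated and from the selumetinib-treated cultures. All 8 libraries come from the same cell line, grown as monolayers, and nothing in the labels says that the libraries of a group came from separate cultures, so p-values measure only the spread between these libraries.

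The labels of the libraries contradict each other. In all 8 the title gives the other treatment, and also the other fraction, than the description does, and the groups used here follow the descriptions, which are also the column names of the table. Read by the titles, each response and each difference between fractions would belong to the other fraction or treatment with its sign changed, and the difference between the responses would be as given. CCNB1 mRNA stood at 591 and 704 RPM (reads scaled to the total of the library) in the untreated CCNB1-positive libraries against 136 and 171 RPM in the untreated CCNB1-negative libraries, and at 309 and 267 against 11.01 and 6.93 RPM under selumetinib. All 6 genes of a list of ERK-induced transcripts (DUSP6, SPRY4, ETV4, ETV5, PHLDA1 and CCND1) were lower in the libraries described as selumetinib-treated than in those described as untreated in both fractions. This held as deposited and under each of the 3 other scalings (limma). Their median log2 change was -1.74 in the CCNB1-negative and -1.51 in the CCNB1-positive fraction. Of all genes tested, 35.8% and 27.3% were lower in those fractions. The CCNB1 values and those of the 6 genes both run in the direction of the descriptions. The reads on genes numbered between 12696860 and 23916160 per library, and the 2 selumetinib-treated CCNB1-negative libraries had fewest. Mitochondrial genes took 4.44 to 7.80% of the reads in the untreated libraries and 11.9 to 14.8% in the treated libraries, and the nuclear RNA MALAT1 took 0.303 to 0.386% and 2.01 to 4.42%, which moves every value scaled to the total. All 8 colon epithelial markers examined passed the filter of 1 RPM described below, with summed levels of 5418 to 12064 RPM. Of 7 markers of other cell types LYZ stood at 343 to 1081 RPM, COL1A1 reached 5.36 RPM, and the other 5 reached at most 1.13 RPM.

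Cytokinesis splits the cytoplasm of a dividing cell after its chromosomes have separated. Antiparallel microtubules are bundled between the chromosomes into the central spindle, where the centralspindlin complex recruits an activator of the small GTPase RhoA, and RhoA then drives assembly of the contractile ring of actin and myosin. The ring closes around the midbody, a remnant of the spindle at which the ESCRT machinery cuts the last bridge between the daughter cells. Many genes of this process are transcribed periodically, with their mRNAs most abundant in G2 and mitosis.

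Promoters of such periodic genes often hold a cell cycle genes homology region (CHR), the motif TTTGAA, at the start of transcription, and a CCAAT box upstream. These motifs were looked for in the 7 genes themselves. The promoters printed are the 4 with TTTGAA within 40 bases before to 20 bases after the start. Those of ECT2 and ARHGAP11A, without TTTGAA there, are not printed. RefSeq windows of 250 bases before to 50 bases after the start, on GRCh38.p14, were matched by symbol for 6 of the 7 genes, with 2 windows for ECT2, and RACGAP1 was not matched. The stretches run 5′ to 3′ on the strand of the gene, from 80 bases before the start to 20 bases after it, and capitals mark TTTGAA or CCAAT on either strand (TTCAAA and ATTGG when read on the other strand).
PRC1, chr15:90994516-90994615, minus strand: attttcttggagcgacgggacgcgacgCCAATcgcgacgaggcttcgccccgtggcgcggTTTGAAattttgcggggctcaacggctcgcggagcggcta
ANLN, chr7:36389782-36389881, plus strand: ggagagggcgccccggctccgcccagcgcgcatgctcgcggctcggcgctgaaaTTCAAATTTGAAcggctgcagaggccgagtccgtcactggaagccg
CIT, chr12:119877301-119877400, minus strand: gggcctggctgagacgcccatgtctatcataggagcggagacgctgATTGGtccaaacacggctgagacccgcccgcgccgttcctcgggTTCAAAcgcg
CEP55, chr10:93496532-93496631, plus strand: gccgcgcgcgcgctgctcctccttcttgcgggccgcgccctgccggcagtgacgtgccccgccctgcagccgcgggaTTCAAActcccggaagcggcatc

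In PRC1 the TTTGAA began at -20, counted from the first transcribed base, with a CCAAT box at -53. ANLN held 2 copies side by side on opposite strands, at -26 and -20. CIT carried the motif on the other strand at 10, inside the transcribed part, and CEP55 carried it across the start at -3. TTTGAA on either strand occurred within 40 bases before to 20 after the start in these 4 of 6 genes, against 2.86% of all 35116 promoter windows, and anywhere in the window in 5 of 6, ECT2 being the additional gene, against 15.2%. A CCAAT box was found in 4 of 6, against 34.6% of all windows. A gene was counted if any of its windows held the motif, while the shares are per window. The E2F motifs TTTGGCGC, TTTCGCGC and TTTCCCGC, searched on both strands, were found in 0 of 6, against 2.74%. ARHGAP11A held none of these letters in its window. These matches are a description of the sequence, and the motifs and the narrow window were chosen after the expression values were known.

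All 7 genes passed the filter of a geometric mean of at least 1 RPM over the 8 libraries, as did 14219 genes in all. Each of the 7 stayed above 1 RPM in every library. The fewest reads on any of them were 48, on CEP55, in a selumetinib-treated CCNB1-negative library. In these bulk libraries fewer cycling cells and less RNA per cell cannot be told apart.

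The central spindle genes were PRC1, which crosslinks antiparallel microtubules, RACGAP1, the GTPase-activating subunit of centralspindlin, and ECT2, the exchange factor that activates RhoA at the equator. PRC1 (ENSG00000198901, chr15:90966040-90995629) was measured at 154 and 124 RPM in untreated CCNB1-negative, 375 and 393 RPM in untreated CCNB1-positive, 15.9 and 15.3 RPM in treated CCNB1-negative and 241 and 216 RPM in treated CCNB1-positive libraries. RACGAP1 (ENSG00000161800, chr12:49976923-50033136) followed the same order of groups, at 48.9 and 40.4, 133 and 155, 8.36 and 6.46, and 101 and 106 RPM. The 2 libraries of each group lay closer to each other than to any other group for both genes. ECT2 (ENSG00000114346, chr3:172750682-172821474) was measured at 138 and 154, 254 and 281, 17.9 and 18.4, and 127 and 115 RPM in the same order. As scaled to the library total, ECT2 differed from the other 6 genes in its order of groups. Its level in treated CCNB1-positive cells lay below that in untreated CCNB1-negative cells, with no overlap between those libraries. This comparison was not tested or repeated under another scaling. Mitochondrial and MALAT1 reads took larger shares of the treated libraries, so the order can depend on the scaling.

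Of the genes of the ring, ANLN encodes anillin, a scaffold that binds actin, myosin, septins and RhoA, and CIT encodes citron kinase, which acts at the midbody. ANLN (ENSG00000011426, chr7:36389821-36453791) was measured at 86.0 and 70.2 RPM in untreated CCNB1-negative, 220.3 and 229 RPM in untreated CCNB1-positive, 11.8 and 7.64 RPM in treated CCNB1-negative and 161 and 158 RPM in treated CCNB1-positive libraries. CIT (ENSG00000122966, chr12:119685791-119877320) was measured at 26.3 and 19.2, 75.1 and 55.6, 8.22 and 11.3, and 119 and 135 RPM in that order. CIT was the only one of the 7 genes with its highest level in treated CCNB1-positive cells, and both of those libraries lay above both untreated CCNB1-positive libraries.

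CEP55 brings the ESCRT machinery to the midbody for abscission, and ARHGAP11A is a GTPase-activating protein for RhoA. CEP55 (ENSG00000138180, chr10:93496632-93529092) stood at 47.4 and 47.8 RPM in untreated CCNB1-negative, 149.8 and 162 RPM in untreated CCNB1-positive, 5.72 and 3.78 RPM in treated CCNB1-negative and 119 and 105 RPM in treated CCNB1-positive libraries. ARHGAP11A (ENSG00000198826, chr15:32615144-32639941) stood at 64.4 and 53.6, 184 and 182, 5.58 and 4.73, and 103 and 111 RPM. Both genes had their lowest levels, well apart from all other groups, in treated CCNB1-negative cells.

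**Figure D1:**
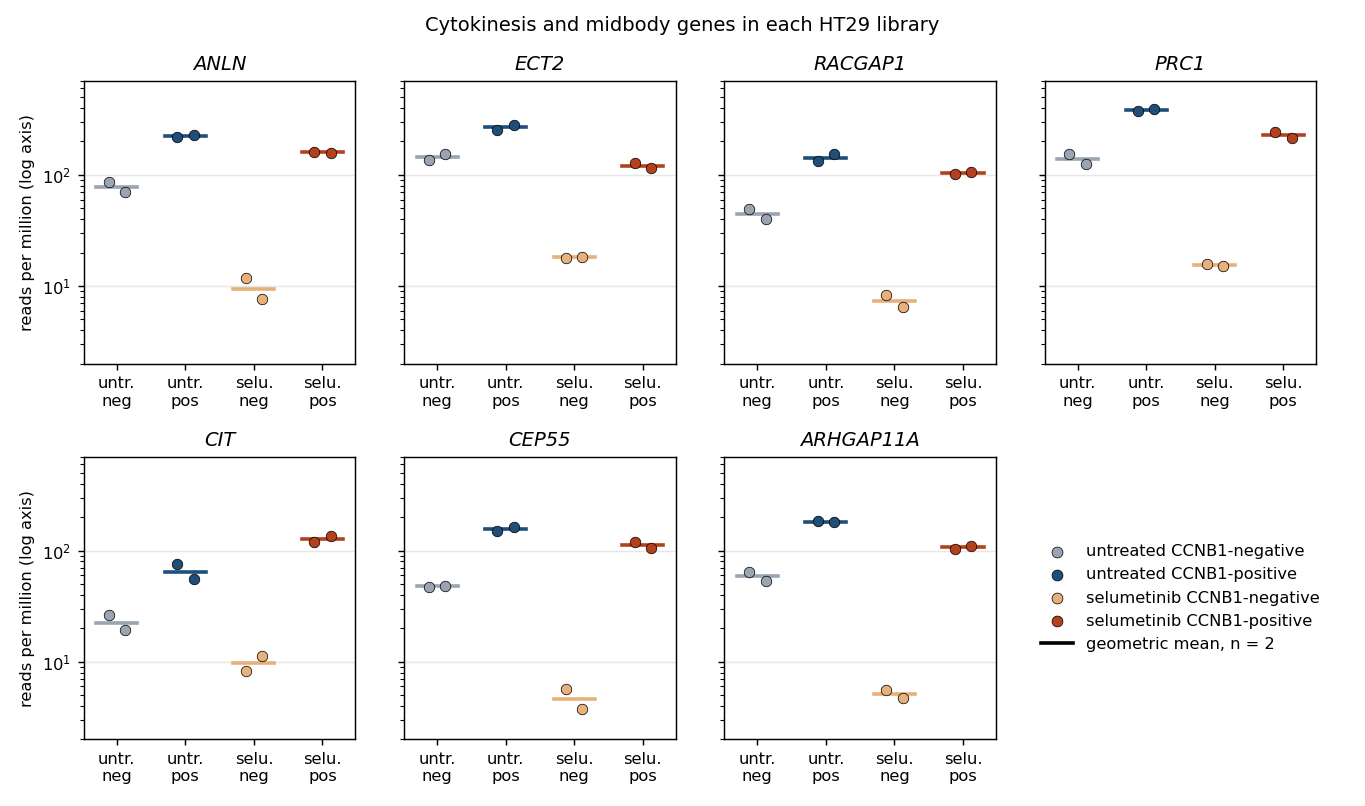
RPM on a log axis for each of the 7 genes in each library, grouped by treatment (untr., untreated; selu., selumetinib) and by CCNB1-negative (neg) or CCNB1-positive (pos) fraction, where points are libraries and bars are geometric means of 2. All 7 genes are lowest in selumetinib-treated CCNB1-negative cells, and CIT alone is highest in selumetinib-treated CCNB1-positive cells, at 119 and 135 RPM.

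Per kilobase of the canonical transcript (RPKM), PRC1 was the most abundant of the 7 genes in every group, at 122 and 128 RPKM in untreated CCNB1-positive cells. There ECT2 followed at 61.5 to 68.0, CEP55 at 56.4 to 61.1, ANLN at 46.6 to 48.3, RACGAP1 at 42.8 to 49.8, ARHGAP11A at 30.9 to 31.3 and CIT at 6.37 to 8.60 RPKM. ANLN and RACGAP1 overlapped, and the gap between ECT2 and CEP55 was smaller than the spread of either. In treated CCNB1-positive cells the order was PRC1, CEP55, ANLN, RACGAP1, ECT2, ARHGAP11A and CIT. ECT2 had moved from the second place to the fifth, at 27.8 to 30.8 RPKM, and CIT stayed last at 13.7 to 15.4 RPKM, close to ARHGAP11A at 17.5 to 18.8 RPKM. In treated CCNB1-negative cells PRC1 was measured at 4.97 to 5.17 and ARHGAP11A at 0.804 to 0.949 RPKM, the latter overlapping with CIT at 0.941 to 1.30 RPKM. The level of PRC1 carries a limit: it shares 3181 of its 5523 exon bases with a readthrough gene on the same strand (ENSG00000284946) that the table lists with up to 8847 reads, and the handling of shared reads is not given in the sources used here. ARHGAP11A shares 1943 of 6406 exon bases with the readthrough gene ARHGAP11A-SCG5, which is not in the table. Its reads can also be split with its paralog ARHGAP11B, which stood at 149 to 182 RPM in treated CCNB1-positive libraries. The level and the changes of ARHGAP11A are uncertain for that reason.

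The response of CCNB1-negative cells to selumetinib was a fall in all 7 genes, in a comparison in which 35.8% of the genes tested fell (limma, adjusted p under 0.05 over 14219 genes). ARHGAP11A fell by 3.66 on the log2 scale, to 7.93% of its untreated level (95% interval -3.99 to -3.33, adjusted p 8.6e-10, limma), and CEP55 fell by 3.49, to 8.88%. PRC1 changed by -3.29, ANLN by -3.17, ECT2 by -3.14 and RACGAP1 by -2.74. CIT changed least, by -1.36 (-1.79 to -0.92), to 39.0% of its untreated level, and its interval did not reach that of any of the other 6. The median change of the 7 genes was -3.17, beside 0.05 for all genes tested. Adjusted p-values lay between 8.6e-10 and 3.4e-05 (limma). Another scaling of the libraries moved the median of all genes between -0.21 and 0.36 and the share of calls that were higher from 51.6% as deposited to 42.9% with median-of-ratios size factors, 47.4% after quantile normalization and 63.1% with the nuclear total (genes outside the mitochondrial genome, without MALAT1), and relative to all genes the median of the 7 genes was -3.22 as deposited and -3.20 after quantile normalization.

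In CCNB1-positive cells 6 of the 7 genes fell under selumetinib and CIT rose, where 27.3% of the genes tested fell and 38% rose. ECT2 fell most, by 1.25 on the log2 scale (95% interval -1.55 to -0.94, adjusted p 6.7e-06, limma), to 42.1% of its untreated level. ARHGAP11A changed by -0.88 and PRC1 by -0.86, to 54.3% and 55.3%. ANLN changed by -0.60, CEP55 by -0.58 and RACGAP1 by -0.57, to 66.1%, 66.7% and 67.4% of untreated, with adjusted p-values of 0.0135, 0.0138 and 0.0096 (limma). CIT rose by 0.87 (0.43 to 1.30, adjusted p 0.0019, limma), to 183% of its untreated level. The median over the 7 genes was -0.60, beside 0.17 for all genes tested.

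The smaller falls in CCNB1-positive cells depended on the scaling. ANLN, RACGAP1 and CEP55 were no longer called after quantile normalization, with changes of -0.29, -0.35 and -0.35, or when libraries were scaled to nuclear genes without MALAT1, with -0.35, -0.32 and -0.33. They were also not called without the untreated CCNB1-positive replicate 2, whose removal left 3 of the 7 genes called lower. ECT2, PRC1 and ARHGAP11A stayed lower and CIT stayed higher under each scaling tried. For ARHGAP11A a split of reads with its paralog ARHGAP11B was not allowed for. The all-gene median moved between -0.18 and 0.42 over these scalings, and of all called genes 58.1% rose as deposited, 47.5% after quantile normalization, 40.9% with median-of-ratios size factors and 71.9% with the nuclear total.

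**Figure D2:**
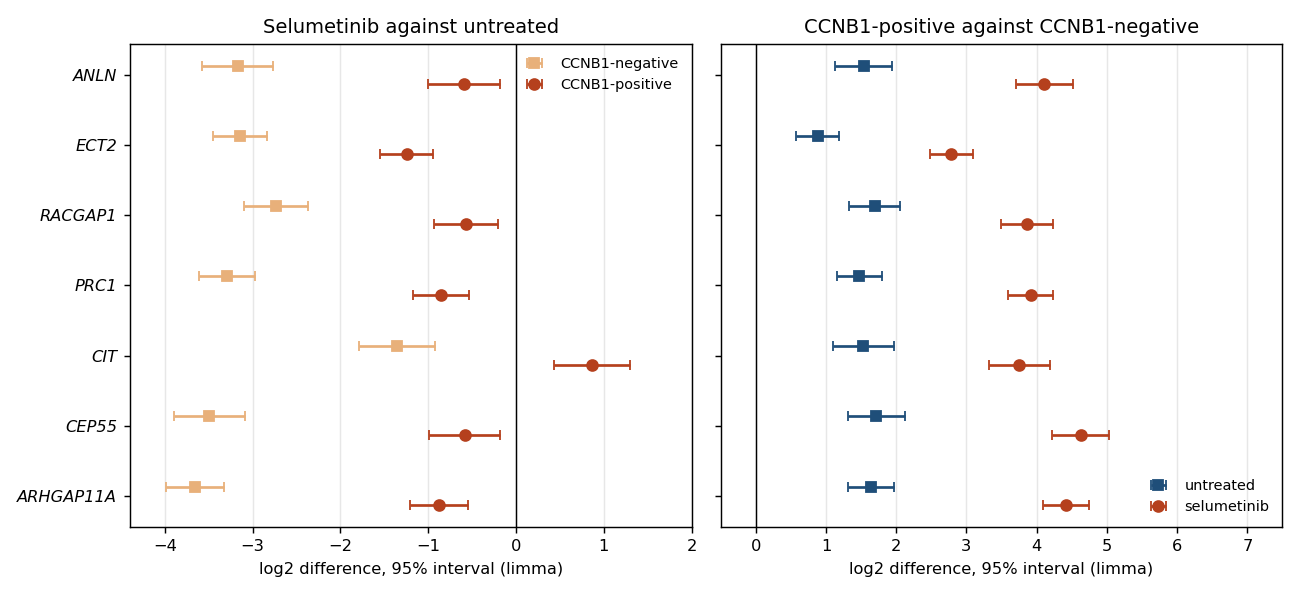
Log2 differences of the 7 genes with 95% intervals from limma, for selumetinib against untreated in each fraction (left) and for CCNB1-positive against CCNB1-negative cells in each treatment (right), from 2 libraries a group. The CCNB1-negative responses run from -3.66 to -1.36 and the CCNB1-positive responses from -1.25 to 0.87, and fraction differences are larger under selumetinib for all 7 genes.

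The composition of the reads on the 7 genes does not depend on how libraries are scaled. CIT took 3.77 to 5.40% of these reads in the 4 untreated libraries and 11.2 to 16.8% in the 4 treated libraries, with no overlap. ECT2 took 24.4 and 30.2% in untreated and 24.3 and 27.2% in treated CCNB1-negative cells. In CCNB1-positive cells its share was 18.3 and 19.3% untreated and 13.1 and 12.2% treated, so that the share was lower in positive cells of either treatment. PRC1 held 21.6 to 27.3% and RACGAP1 7.94 to 11.4% in all libraries. ANLN held 11.3 to 16.7%.

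**Figure D3:**
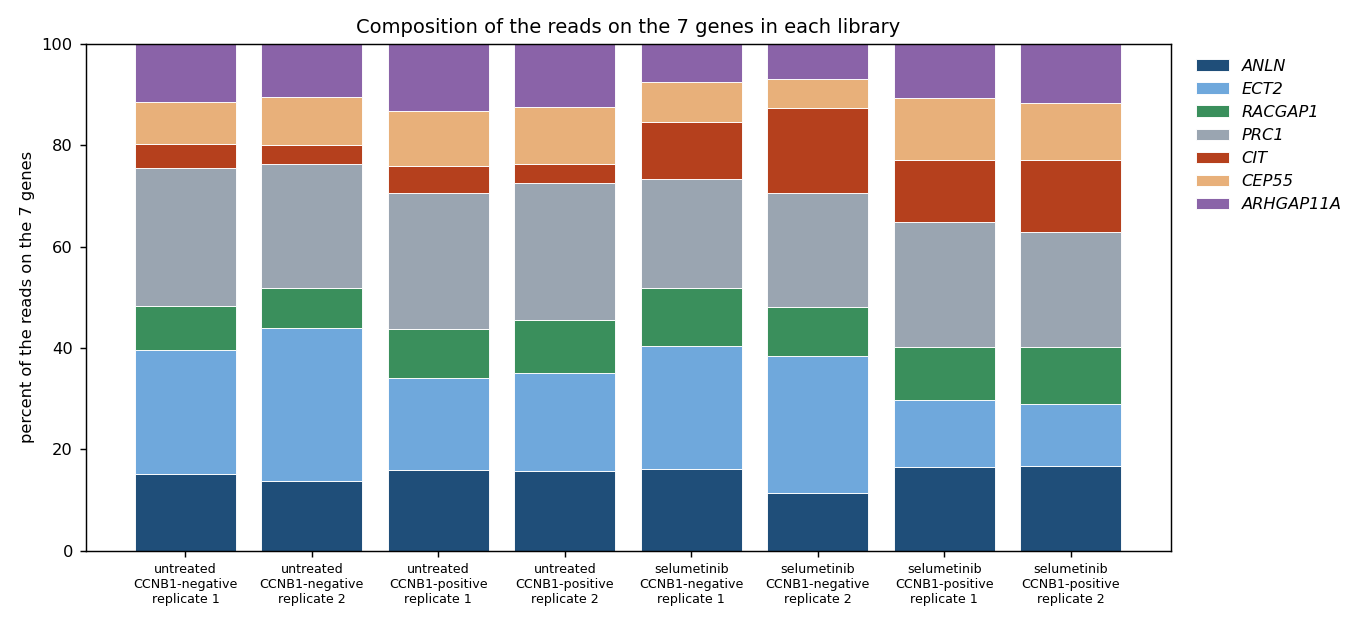
Percent of the reads on the 7 genes that fell on each of them, 1 bar per library. The CIT segment covers 3.77 to 5.40% in untreated and 11.2 to 16.8% in treated libraries, and the ECT2 segment is smallest in treated CCNB1-positive cells, at 13.1 and 12.2%.

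Between the fractions of untreated cells, all 7 genes were higher in CCNB1-positive cells, in a comparison in which 1.36% of the genes tested were higher and 1.51% lower (limma, adjusted p under 0.05). CEP55 was 3.29-fold higher (log2 1.72, 95% interval 1.32 to 2.12), RACGAP1 3.23-fold and ARHGAP11A 3.12-fold. ANLN, CIT and PRC1 were 2.90-, 2.89- and 2.78-fold higher. ECT2 had the smallest difference, 1.85-fold (log2 0.88, 0.58 to 1.19, adjusted p 0.0023, limma), and it was not called without the untreated CCNB1-positive replicate 2 (log2 0.81, adjusted p 0.053). The median over the 7 genes was 1.54 on the log2 scale, beside -0.06 for all genes. Of all called genes 47.5% were higher in CCNB1-positive cells, and 64.8% after quantile normalization.

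Under selumetinib the same comparison again gave all 7 genes higher in CCNB1-positive cells, where 13.8% of the genes tested were higher. CEP55 was 24.7-fold and ARHGAP11A 21.4-fold higher, ANLN 17.3-fold, PRC1 15.1-fold, RACGAP1 14.5-fold and CIT 13.5-fold. ECT2 was again the least different, at 6.88-fold (log2 2.78, 95% interval 2.47 to 3.09). Adjusted p-values lay between 1.8e-10 and 6.7e-09 (limma), and the median was 3.91 on the log2 scale beside 0.02 for all genes. Higher genes made up 63.6% of the calls as deposited and 47.9% after quantile normalization. The sort was on CCNB1 protein, and 8 of 8 G2/M markers were likewise higher in CCNB1-positive cells in both treatments, with summed levels of 918 to 1073 and 4042 to 4457 RPM in untreated and 98.9 to 138 and 3153 to 3301 RPM in treated CCNB1-negative and -positive libraries. Their part in the differences of the 7 genes was not tested.

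The difference between the responses was tested directly, as the response of CCNB1-positive cells minus that of CCNB1-negative cells. It was positive for all 7 genes, where 4.99% of the genes tested had a positive difference (limma, adjusted p under 0.05). CEP55 differed by 2.91 (95% interval 2.34 to 3.48), ARHGAP11A by 2.78, ANLN by 2.57, PRC1 by 2.44, CIT by 2.23, RACGAP1 by 2.17 and ECT2 by 1.90 (1.46 to 2.33) on the log2 scale. The adjusted p-values ran from 4.4e-06 to 0.00017 (limma). CIT, which stood apart in each response, lay within the range of the other 6 genes here, and the intervals of CIT and RACGAP1 overlapped nearly in full. The differences between fractions and this difference are made from the same 8 libraries as the responses and are not further evidence for them. Among all called genes the difference was positive for 93.5%, and for 70.9% after quantile normalization.

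The other genes of the pathway were taken from lists by role. The central spindle and midbody kinesins KIF23, KIF4A, KIF14, KIF20A and KIF20B, which include the motor subunit of centralspindlin (KIF23), fell in 5 of 5 cases in CCNB1-negative cells, where 35.8% of all genes tested fell, with a median of -2.90. In CCNB1-positive cells KIF20A (-0.63) and KIF20B (-0.57) fell, where 27.3% of all genes tested fell. The other 3 were not called, KIF14 among them at 0.30 (-0.20 to 0.80). After quantile normalization or with the nuclear total 0 of 5 were called there (3 of 5 lower with median-of-ratios size factors). KIF14, which binds PRC1 and citron kinase, was measured at 19.2 and 10.9 RPM in untreated CCNB1-negative, 88.8 and 72.5 RPM in untreated CCNB1-positive, 3.07 and 2.60 RPM in treated CCNB1-negative and 96.1 and 117 RPM in treated CCNB1-positive libraries. All 5 kinesins had a positive difference between the responses, from 2.53 to 2.84, where 4.99% of all genes tested had one.

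The chromosomal passenger complex (AURKB, INCENP, BIRC5, CDCA8) and PLK1, kinases and partners that position and license the central spindle, gave 5 of 5 lower in CCNB1-negative cells and 4 of 5 lower in CCNB1-positive cells, where 35.8% and 27.3% of all genes tested were lower. PLK1, which promotes the binding of ECT2 to centralspindlin, changed by -3.32 and by -1.36 in those fractions. INCENP was not called in CCNB1-positive cells (-0.54, -1.09 to 0.01). After quantile normalization, or with the nuclear total, PLK1 was called there and the other 4 were not, and with median-of-ratios size factors all 5 were lower. By limma-voom 2 of 5 were called there. The difference between the responses was positive in 5 of 5, from 1.45 for INCENP to 3.01 for BIRC5. It was called in 4 of 5 with the nuclear total and in 4 of 5 by limma-voom. The counts in CCNB1-positive cells and in the difference also fell when some single libraries were left out. Of all genes tested, 4.99% had a positive difference with the deposited scaling.

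Of 12 genes of RhoA signalling and the contractile ring, 0 differed between the fractions of untreated cells by limma, where 2.87% of all genes tested differed (1 at an unadjusted p under 0.05, 0 by limma-voom). In the selumetinib-treated cells 3 of the 12 were higher in the CCNB1-positive fraction and 0 lower, where 13.8% of all genes were higher, namely RHOA (0.52), DIAPH1 (0.46) and DIAPH3 (2.87). This count was 1 with the nuclear total, 1 without any single CCNB1-positive library or without the selumetinib CCNB1-negative replicate 2, and 5 without the selumetinib CCNB1-negative replicate 1. In the difference between the responses 1 was called, where 5.33% of all genes were, and this was DIAPH3, a formin that nucleates actin filaments. The 0 and 1 of 12 are near the shares of all genes, and the lists were not tested against each other. DIAPH3 was measured at 50.9 and 37.3, 63.9 and 59.0, 16.4 and 21.8, and 115 and 157 RPM in the order of groups used above. It fell by 1.34 in CCNB1-negative cells and rose by 1.03 in CCNB1-positive cells, as CIT did by 1.36 and 0.87. RHOA itself changed by -1.20 and -0.72, and MYH14, a non-muscle myosin heavy chain, by 1.24 and 1.05. In each response the list held calls in both directions, 5 higher and 5 lower in CCNB1-negative cells, where 38.2% of all genes tested were higher and 35.8% lower, and 6 higher and 4 lower in CCNB1-positive cells, where 38% were higher and 27.3% lower. The count in CCNB1-positive cells was 6 higher and 1 lower after quantile normalization and 4 higher and 5 lower with median-of-ratios size factors. MYL9, a regulatory light chain, rose by 3.10 and 4.81, from 0.335 to 0.865 RPM in untreated to 4.88 to 17.9 RPM in treated libraries, and so passed the filter through the treated groups.

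Of the 7 septins, filament-forming GTPases bound by anillin, 1 was higher and 2 were lower in each response, where 35.8% and 27.3% of all genes tested were lower in CCNB1-negative and -positive cells. By limma or limma-voom 0 of 7 were called in either comparison of fractions or in the difference between the responses, with at most 1 at an unadjusted p under 0.05, against 2.87% of all genes in the untreated comparison, 21.6% in the treated comparison and 5.33% in the difference. Between the untreated fractions 1 septin was called after quantile normalization and 1 with median-of-ratios size factors, and in the difference 1 was called after quantile normalization. SEPTIN7 changed by -0.95 and -0.83. SEPTIN6 was the one that rose, by 4.04 and 2.28, at 0.209 to 0.794 RPM in untreated and 3.69 to 4.50 RPM in treated libraries, and it too passed the filter through the treated groups. Of 18 genes of the ESCRT machinery, which cuts the bridge after recruitment by CEP55, 3 were higher and 7 lower in CCNB1-negative cells and 1 higher and 4 lower in CCNB1-positive cells, with CHMP2B changed most, by -1.91 and -1.25. Of all genes tested, 38.2% were higher and 35.8% lower in the former response and 38% and 27.3% in the latter. The counts for ESCRT and septins moved with the scaling: with the nuclear total 6 ESCRT genes were higher and 2 lower in CCNB1-negative cells, and with median-of-ratios size factors 5 septins were lower there. Between the treated fractions CHMP7 was higher (0.62) and SPAST lower (-0.72) in CCNB1-positive cells. Leaving out a library gave 0 to 4 higher and 0 to 1 lower, with 4 higher without the selumetinib CCNB1-negative replicate 1, and without that library 1 was called in the difference between the responses. Between the untreated fractions 0 of 18 were called by limma or limma-voom (1 at an unadjusted p under 0.05). In the difference between the responses 0 of 18 ESCRT genes were called by limma under any of the 4 scalings or by limma-voom, where 5.33% of all genes were called with the deposited scaling, and 1 had an unadjusted p under 0.05. TTTGAA was found in the promoter windows of 4 of 5 kinesins, 3 of 4 genes of the passenger list, 1 of 11 of the RhoA list, 0 of 7 septins and 1 of 14 ESCRT genes that had a window. Of all promoter windows 15.2% held it, and the counts of the last 3 lists are near that share. The lists were not tested against each other for the motif.

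**Figure D4:**
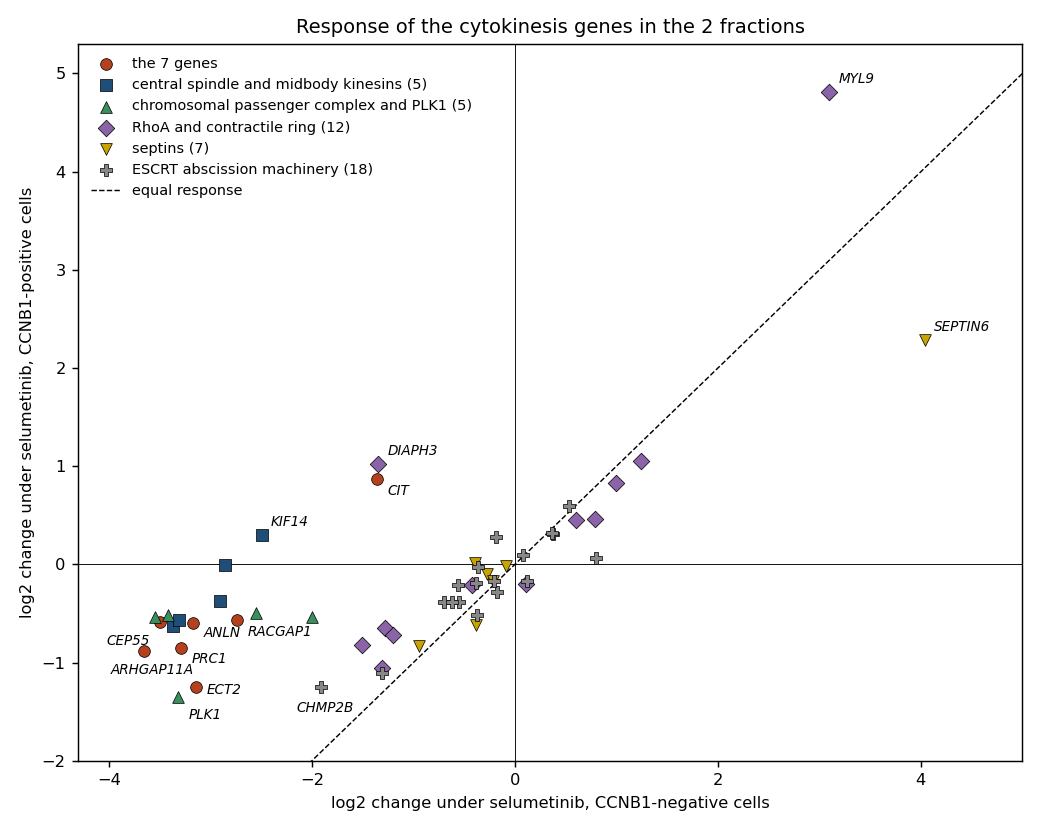
Log2 change under selumetinib in CCNB1-negative cells (horizontal) against that in CCNB1-positive cells (vertical) for the 7 genes and 5 lists of other cytokinesis genes, 1 point per gene, with the dashed line at equal responses. The 7 genes, the kinesins, the passenger list and DIAPH3 lie well above the line, while most septin and ESCRT genes lie near it. The 2 points far to the right are MYL9 and SEPTIN6.

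The genes outside the 7 with the most similar profile were ranked by the root mean square difference over the 8 libraries on the log2 scale, each profile centred on its own mean. BUB1B lay nearest to the mean profile of the 7 genes, at 0.0785, followed by its readthrough BUB1B-PAK6, which can share its reads, at 0.150, MKI67 at 0.181, HMGB2 at 0.200 and CCNB2 at 0.202. Of the 7 genes RACGAP1 lay closest to their mean, at 0.117, and CIT farthest, at 0.793, with ECT2 next at 0.520. The nearest single profile to CIT was that of KNL1, at 0.195, which changed by -1.67 in CCNB1-negative and by 0.55 in CCNB1-positive cells (adjusted p 0.022, limma). The rise of KNL1 was not called with median-of-ratios size factors. ECT2 lay nearest to CKS1B, ANLN and PRC1 to MKI67, CEP55 to KNSTRN and ARHGAP11A to TTK.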

How the data were processed

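HT29 mRNA-seq libraries, 2 in each of 4 groups, were compared. Per the submitters' processing notes, Trim Galore 0.5.0 was used for trimming and HISAT2 2.1.0 for alignment to GRCh38. The authors deposited log2 reads per gene from SeqMonk, scaled by total read count to the largest library, with genes lacking a read set to 0.9 reads. The annotation release and strand handling are not given in the sources used here. The labels name RPMI-1640 medium and the methods another. All 8 value columns were used. Undoing the scaling returned whole read numbers for 100% of genes with reads (tolerance 0.01 reads), at a depth of 12696860 to 23916160. Without molecular identifiers, read numbers bound only the counting error.

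Genes whose mean log2 value was at least that of 1 RPM (a geometric mean) were tested with limma 3.58.1 (R 4.3.3) and a mean-variance trend. The fit was on the deposited log2 scale with a coefficient for each group over all 8 libraries and Benjamini-Hochberg adjustment at 0.05. The authors tested counts with DESeq2. Treated was compared with untreated in each fraction, the fractions in each treatment, and the responses by the interaction. On simulated reads for the response of CCNB1-negative cells (14211 genes), 100% of 4-fold and 95% of 2-fold changes were recovered, and 17 of 211 calls were false. The simulation gave all genes the same fixed spread and changed only 200 of them. In the data 74.1% of genes were called in this comparison, so these rates need not hold for the data. RPKM used GENCODE canonical transcript lengths.

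The 7 genes and the lists were chosen with earlier results of these data known. Named genes are the 7, list genes with the highest and lowest changes or of known partnership with the 7, CCNB1, and the nearest profiles. KIF14, DIAPH3, RHOA, MYH14, SEPTIN7, INCENP, CHMP2B, DIAPH1, CHMP7 and SPAST were named after their values were seen. KIF23 was matched by identifier, since the table gives it a clone name, and septins by older symbols. Alternatives were filters, scalings, a pseudocount of 0.1 RPM, limma-voom on recovered reads, blocks, thresholds and leaving out each library. Python 3.11.15, pandas 2.3.3 and matplotlib 3.10.9 were used. COLO205 data were not analysed here.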

Additional observations from a re-analysis of the deposited data

Results flagged for a closer look

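For each of the 7 genes the 2 fractions differed in their response to selumetinib by the interaction term of limma, adjusted over 14219 genes. The response of CCNB1-positive cells minus that of CCNB1-negative cells was 2.91 on the log2 scale for CEP55, 2.78 for ARHGAP11A, 2.57 for ANLN, 2.44 for PRC1, 2.23 for CIT, 2.17 for RACGAP1 and 1.90 for ECT2. With 2 libraries a group, no test for a library far from the others was made within groups.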

How the results depend on the processing

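All 7 genes were lower in CCNB1-negative cells, higher in CCNB1-positive cells under selumetinib and positive in the difference between the responses under each of the 19 or 20 settings that gave a value, and no change of any of the 7 genes reversed. In the comparison of untreated fractions leaving out a library gave 6 to 7 genes. The number of genes lower in the response of CCNB1-positive cells was 6, and 3 after quantile normalization, 3 with the nuclear total without MALAT1 and 1 when at least 2-fold was also required. Leaving out a library, with the lone library of that group assumed to vary like the other groups, gave 3 to 6, with 3 without the untreated CCNB1-positive replicate 2. Of 679 recomputed values of single genes 657 kept direction and call and 22 lost the call. The cause of the losses was not tested, apart from those under a stricter threshold.

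A replicate block gave counts of 7, 6, 7, 7 and 7 in the order of the report and changed no call on the 7 genes. Deviations of same-numbered libraries correlated at 0.352 and 0.428 between the fractions of a treatment and at -0.0875 to 0.0821 across treatments, so the fractions sharing a number deviate together and the treatments do not. With 2 pairs a treatment and no label that ties them, the numbers were not taken as pairs. Genes called in the untreated and the treated comparison of fractions and in the difference numbered 408, 3077 and 758 without a block, 500, 3741 and 883 with it, and 1923, 6671 and 3850 with a block for each pair of fractions, or 13.5%, 46.9% and 27.1% of the genes tested. With that last block 1, 8 and 5 of 12 RhoA genes, 1, 2 and 2 of 7 septins and 1, 6 and 3 of 18 ESCRT genes were called, so the low counts of these lists between fractions depend on it. Leaving out a library gave 224 to 455, 1156 to 4279 and 489 to 1806, the last 2 highest without the selumetinib CCNB1-negative replicate 1. Limma-voom on recovered reads called 10512, 9518, 406, 3445 and 666 genes in the 5 comparisons. With 2 libraries a group, small changes of about 0.6 on the log2 scale are at the limit of these tests, and the depth of 48 to 250 reads per gene in treated CCNB1-negative libraries bounds precision there.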

Other observations

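ARHGAP11B, a human paralog that arose from partial duplication of ARHGAP11A, has an entry in the table under an identifier (ENSG00000284906) to which GENCODE release 44 gives no symbol, and reads can be split between the paralogs, so its values are uncertain. It was measured at 14.5 to 33.9 RPM in untreated CCNB1-negative, 56.4 to 86.3 RPM in untreated CCNB1-positive, 12.4 to 12.8 RPM in treated CCNB1-negative and 149 to 182 RPM in treated CCNB1-positive libraries. It changed by -0.96 on the log2 scale in CCNB1-negative cells and by 1.13 in CCNB1-positive cells, where ARHGAP11A changed by -3.66 and -0.88, and all 4 were called by limma. The fall of ARHGAP11B in CCNB1-negative cells was not called with the nuclear total (-0.64), without the untreated CCNB1-negative replicate 1 (-0.36) or without the selumetinib CCNB1-negative replicate 2 (-0.92), and was -1.56 without the untreated CCNB1-negative replicate 2. The difference between the responses was 2.09 for ARHGAP11B, not called without the selumetinib CCNB1-negative replicate 2 (adjusted p 0.0505, limma), and 2.78 for ARHGAP11A.

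Of the 5 G1/S markers CCNE1, CCNE2, CDC6, MCM5 and E2F1, 5 fell under selumetinib in CCNB1-negative cells, as the 7 genes did, where 35.8% of all genes tested fell. In CCNB1-positive cells 4 of 5 fell, where 27.3% of all genes did (2 of 5 with the nuclear total, 5 of 5 after quantile normalization). Between the fractions of untreated cells they moved opposite to the 7 genes. There 5 of 5 were lower in CCNB1-positive cells, where 1.51% of all genes were lower. Their summed levels were 503 to 505 RPM in CCNB1-negative and 146 to 156 RPM in CCNB1-positive libraries, while the 7 genes were higher, at 509 to 565 against 1392 to 1457 RPM. Between the treated fractions 3 of 5 markers were higher in CCNB1-positive cells, where 13.8% of all genes were higher. Under selumetinib the markers summed to 38.7 to 39.3 and 75.0 to 83.5 RPM and the 7 genes to 67.6 to 73.4 and 947 to 972 RPM.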
